A study of Mus musculus with 6 samples.

Results

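The genes described here encode the enzymes that make cholesterol and fatty acids, the sterol sensing machinery that controls them, and the enzymes that activate fatty acids and pass them into mitochondria. They were chosen by name: 36 genes were listed, and a gene was kept where the count table held an entry under its name with at least 60 counts over the 6 libraries. This left 34 of the 41972 entries of the table, 21 of them on the cholesterol side and 13 on the fatty acid side. Acat2 and Acaca had no entry under those names. All 34 passed the filter on low counts and were tested among 12740 genes.

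The libraries were made from polyadenylated RNA of wild-type mouse macrophages, grown for 6 days from the bone marrow of male C57BL/6 mice aged 6 weeks with L-929-conditioned medium as the source of macrophage growth factor. One group of 2 libraries came from cells that had spent 6 h with extracellular vesicles, small membrane particles shed by cells, of the mould Aspergillus flavus labelled LD-F1_b, at 20 µg per well. A second group of 2 came from cells given vesicles labelled LD-F1 at the same amount and time. The 2 remaining libraries came from cells kept for 6 h with phosphate-buffered saline (PBS). The titles call LD-F1_b and LD-F1 strains, and the labels do not say what the suffix means. The design text calls the replicates of a group biological, without saying whether they came from different mice, so p-values measure the spread between these libraries.

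Cholesterol is built from acetyl-CoA by way of mevalonate, squalene and lanosterol, and fatty acids are built from acetyl-CoA by way of malonyl-CoA before they are lengthened and desaturated. Many genes of both routes are known targets of the SREBP transcription factors, which the escort protein SCAP carries from the endoplasmic reticulum to the Golgi when sterols are low and which INSIG proteins hold back when sterols are high. In macrophages these routes supply membrane lipid and precursors of lipid mediators, and they are known to be rewired after inflammatory signals.

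Promoter windows of 300 bases, 250 before and 50 after an annotated start, were taken from RefSeq on the mouse build GRCm38.p6 for 27 of the 34 genes. The 5 windows below are shown because their genes stand for the patterns in the counts: Insig1 was higher after both kinds of vesicle, Elovl5, Elovl6 and Dhcr7 were lower after both, and Hmgcs1 passed the test after neither. Each is printed 5′ to 3′ on the strand of the gene, and capitals mark a match, on either strand, to TCACNCCAC (a sterol regulatory element of the SREBP type), CACGTG (an E-box, its own reverse complement) or CCAAT (the CCAAT box, ATTGG on the other strand).
Insig1, chr5:28071162-28071461, plus strand: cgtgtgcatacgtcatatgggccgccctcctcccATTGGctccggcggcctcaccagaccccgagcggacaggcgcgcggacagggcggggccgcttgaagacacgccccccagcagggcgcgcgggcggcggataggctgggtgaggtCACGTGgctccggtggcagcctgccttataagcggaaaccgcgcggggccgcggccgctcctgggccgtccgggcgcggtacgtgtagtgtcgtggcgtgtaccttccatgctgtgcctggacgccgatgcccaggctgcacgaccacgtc
Elovl5, chr9:77917115-77917414, plus strand: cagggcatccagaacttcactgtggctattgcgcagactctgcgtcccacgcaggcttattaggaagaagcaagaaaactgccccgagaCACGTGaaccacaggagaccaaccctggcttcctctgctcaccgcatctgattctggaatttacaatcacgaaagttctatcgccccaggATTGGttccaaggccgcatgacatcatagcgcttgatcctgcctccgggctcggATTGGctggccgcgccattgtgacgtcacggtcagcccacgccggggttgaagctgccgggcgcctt
Elovl6, chr3:129532136-129532435, plus strand: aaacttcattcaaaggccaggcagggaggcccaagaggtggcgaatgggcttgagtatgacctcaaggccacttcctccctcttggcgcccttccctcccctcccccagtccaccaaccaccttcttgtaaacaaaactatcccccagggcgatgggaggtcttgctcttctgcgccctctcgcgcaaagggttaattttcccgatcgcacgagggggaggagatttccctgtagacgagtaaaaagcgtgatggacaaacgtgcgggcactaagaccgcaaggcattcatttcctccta
Dhcr7, chr7:143829964-143830263, plus strand: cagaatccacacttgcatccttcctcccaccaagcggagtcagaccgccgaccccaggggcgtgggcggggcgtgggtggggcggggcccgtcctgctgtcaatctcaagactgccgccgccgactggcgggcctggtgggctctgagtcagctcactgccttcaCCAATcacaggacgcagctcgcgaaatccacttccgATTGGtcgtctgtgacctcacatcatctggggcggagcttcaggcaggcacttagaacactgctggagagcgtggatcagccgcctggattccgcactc
Hmgcs1, chr13:119690101-119690400, plus strand: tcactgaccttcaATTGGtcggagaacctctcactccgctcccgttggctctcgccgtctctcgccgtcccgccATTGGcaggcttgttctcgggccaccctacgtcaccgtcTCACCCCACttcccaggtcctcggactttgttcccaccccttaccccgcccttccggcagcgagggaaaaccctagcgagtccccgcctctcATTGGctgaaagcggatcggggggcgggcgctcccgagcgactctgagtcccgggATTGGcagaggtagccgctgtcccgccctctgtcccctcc

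The Hmgcs1 window held TCACNCCAC at 137 bases before the start, together with 4 CCAAT boxes. Insig1 and Elovl5 each held an E-box, at 101 and 161 bases before the start, yet their counts differed from PBS in opposite directions. The Elovl6 window held none of the motifs searched. The Dhcr7 window shown, the most downstream of its 3, held 2 CCAAT boxes. Another Dhcr7 window, not shown, held an E-box at 164 bases before the start annotated there. Of the 27 genes with a window, 23 (85.2%) held CCAAT, against 41.1% of 27025 genes with a window and 42.8% of 8474 such genes that were tested. The GC box GGGCGG, searched on both strands and left in lower case, was also found in 23 (85.2%), against 38.2% of all genes with a window and 69.0% of those tested. CACGTG was found in 6 of 27 (22.2%), against 8.09% and 12.2%. TCACNCCAC was found in 2 of 27 (7.41%), Hmgcs1 and Acsl1, against 1.44% and 1.42%. Where a gene had several windows, a match in any of them was counted, and a match says nothing about binding in these cells.

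Libraries held 13722215 to 15277997 counts, and the 34 genes took 0.373% and 0.375% of them in LD-F1_b libraries, 0.379% and 0.324% in LD-F1 libraries, and 0.431% and 0.425% in PBS libraries. The LD-F1 libraries stood apart from each other: Pearson's r of log2 CPM (counts scaled to a common library total) was 0.9842 between them, against 0.9885 between LD-F1_b and 0.9910 between PBS libraries. Among the 34 genes, the median log2 difference between replicates was 0.18 for LD-F1, against 0.07 for LD-F1_b and 0.06 for PBS. In LD-F1 the difference also followed gene length (Spearman's rho = 0.33 over genes, against 0.10 for LD-F1_b and 0.01 for PBS), so results were also computed without each library and with length offsets. Macrophage markers were present throughout: the 7 of 8 listed that had an entry summed to 2531 to 2586 CPM in LD-F1_b, 2230 to 2447 CPM in LD-F1 and 2594 to 2608 CPM in PBS libraries, led by Csf1r, the receptor of the growth factor, at up to 1336 CPM. Lists of neutrophil, adipocyte, fibroblast, B cell, T and NK cell, mast cell and erythroid markers summed to at most 1.5 CPM in any library, with all 5 mast cell markers and S100a9, Ly6g, Adipoq, Dcn and Cd3e at 0. The 5 endothelial markers summed to 37.5 to 38.7 CPM in LD-F1_b, 27.6 to 36.9 CPM in LD-F1 and 48.3 to 55.9 CPM in PBS libraries, nearly all of it Vwf. Their part in the results below was not tested. In bulk RNA, fewer cells of a type and less RNA per cell cannot be told apart.

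Levels per unit of gene length were compared in TPM, a length-scaled transcript level computed from the counts and the gene lengths of the table. The fatty acid genes held the top of the order. In PBS libraries Scd2, a stearoyl-CoA desaturase, stood at 315 ± 1.65 TPM and Fasn, fatty acid synthase, at 301 ± 6.39 TPM (SD, n = 2). Elovl1, an elongase of very long chains, followed at 213 ± 0.711 TPM. Fads2 at 186 ± 3.99 TPM and Acly at 182 ± 4.38 TPM, the next in order, did not differ beyond their spread. The highest cholesterol gene was Srebf2, which encodes SREBP2, at 163 ± 4.91 TPM in PBS. Sqle at 82.4 ± 2.74 TPM and Hmgcs1 at 81.2 ± 2.25 TPM, the highest cholesterol enzymes, overlapped. At the bottom stood Fdps at 2.32 ± 0.521 TPM and Tm7sf2 at 2.10 ± 0.783 TPM, which could not be ordered. The first 3 ranks, Scd2, Fasn and Elovl1, were the same in LD-F1_b, LD-F1 and PBS means. Acsl4 was rank 8 in LD-F1_b, rank 5 in LD-F1 and rank 8 in PBS, and Elovl6 was rank 24 in LD-F1_b, rank 25 in LD-F1 and rank 18 in PBS.

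**Figure D1:**
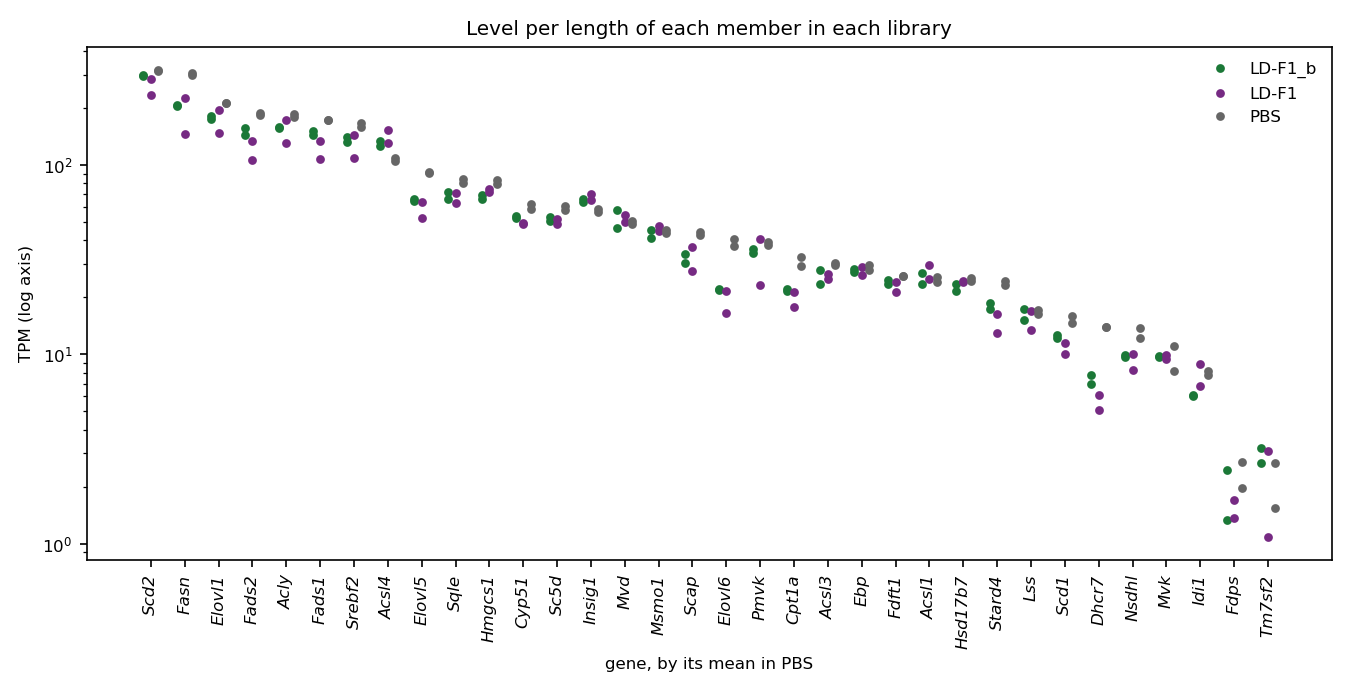
TPM of each of the 34 genes in each library on a log axis, ordered by the PBS mean; points are libraries, coloured by group. Scd2, Fasn and Elovl1 lie highest, at 213 TPM or more in the PBS mean, and Fdps and Tm7sf2 lie lowest, near 2 TPM; since TPM carries no TMM scaling, differences between groups are to be read from the CPM plots.

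The 3 comparisons were each of 2 against 2 libraries, in a fit over all 6 with edgeR's quasi-likelihood test. Genes with an adjusted p under 0.05 (Benjamini-Hochberg, over the 12740 genes) are called below. The comparisons of LD-F1_b and LD-F1 with PBS share the PBS libraries. After LD-F1_b vesicles 5 of the 34 genes were called against PBS (14.7%), where 11.0% of all genes tested were. Insig1 and Acsl4 rose, where 6.44% of all genes did, and Dhcr7, Elovl5 and Elovl6 fell, where 4.54% did. After LD-F1 vesicles 11 were called against PBS (32.4%), where 21.2% of all genes were. Insig1, Acsl1 and Acsl4 rose, where 11.4% of all genes did, and Dhcr7, Stard4, Fasn, Elovl5, Elovl6, Fads1, Fads2 and Cpt1a fell, where 9.87% did. The fatty acid side held most of these calls. Of its 13 genes, 1 rose and 2 fell after LD-F1_b (23.1% called), and 2 rose and 6 fell after LD-F1 (61.5% called). Of the 17 enzymes of the cholesterol route, 1 fell after LD-F1_b and 1 after LD-F1 (5.88% called in each), and it was Dhcr7 in both. The median log2 fold change over the 34 genes was -0.09 for LD-F1_b and -0.10 for LD-F1 against PBS, where the median over all genes was 0.01 in each.

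**Figure D2:**
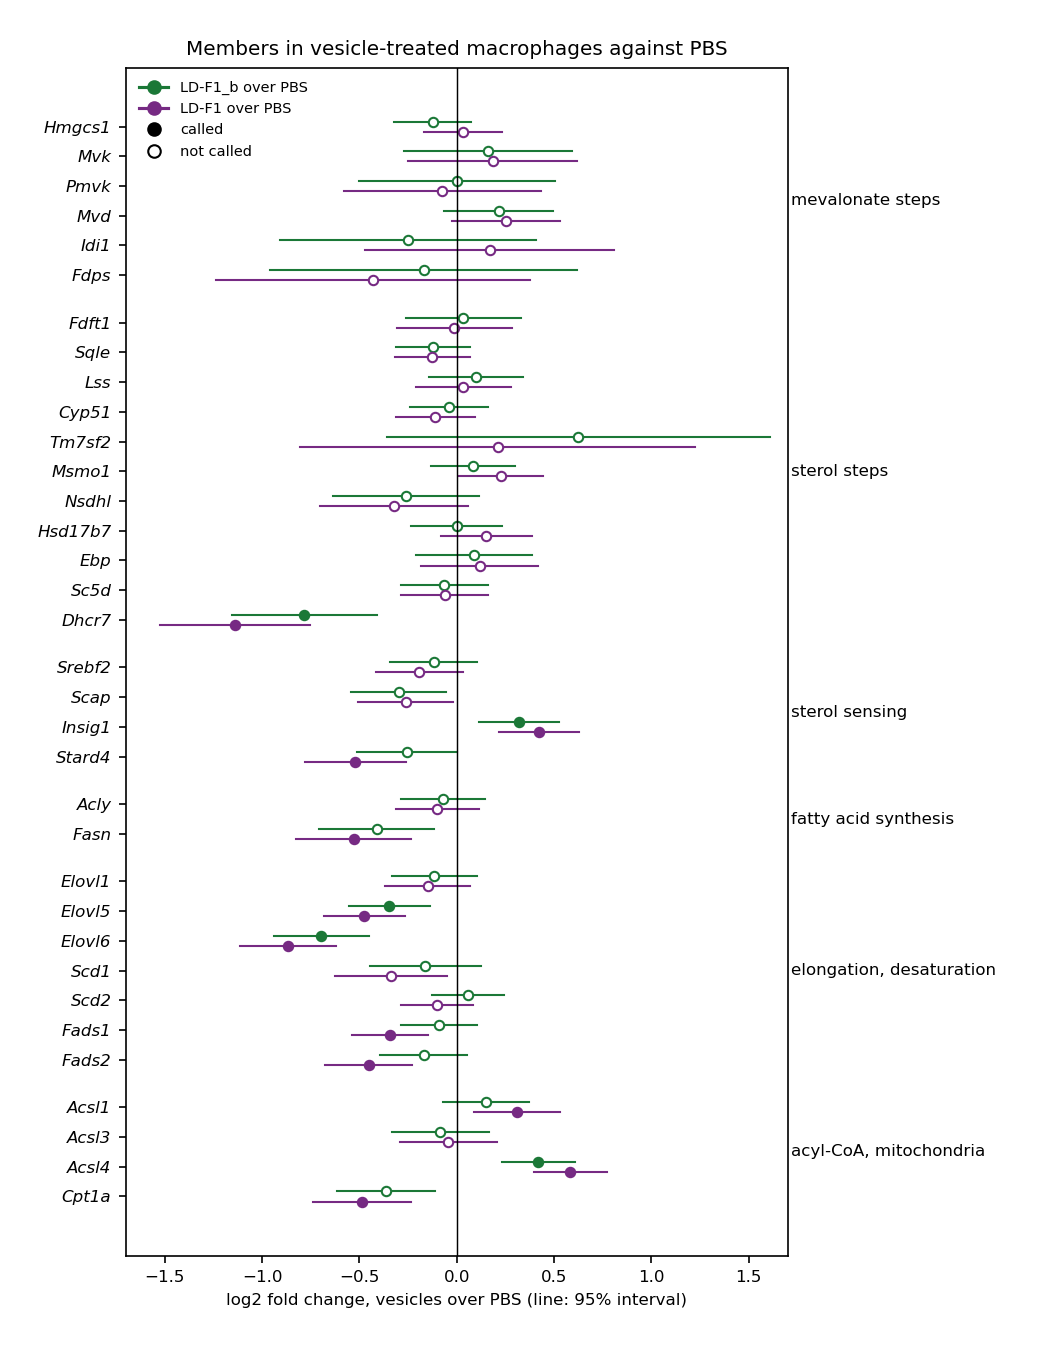
Log2 fold change over PBS of the 34 genes, grouped by role, for LD-F1_b (upper point of each pair) and LD-F1 (lower point); lines are 95% intervals from the fit and filled points passed the test. Dhcr7, at -0.78 for LD-F1_b and -1.14 for LD-F1, is the only cholesterol enzyme that passed the test, and the elongases and desaturases lie mostly to the left.

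Libraries did not overlap for more genes than were called. Against PBS, the LD-F1_b libraries were both higher for 7 of the 34 genes and both lower for 18, where 30.4% of all genes tested were both higher and 30.0% both lower (60.4% in all). The LD-F1 libraries were both higher than PBS for 6 and both lower for 19, against 29.9% and 29.6% of all genes (59.5% in all). The calls rested on few libraries. Leaving out a library of a compared group moved the number called among the 34 genes, and over all genes as well. The median log2 fold change of the 34 genes against PBS then lay between -0.12 and -0.09 for LD-F1. For LD-F1_b it lay between -0.10 and -0.07.

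**Figure D3:**
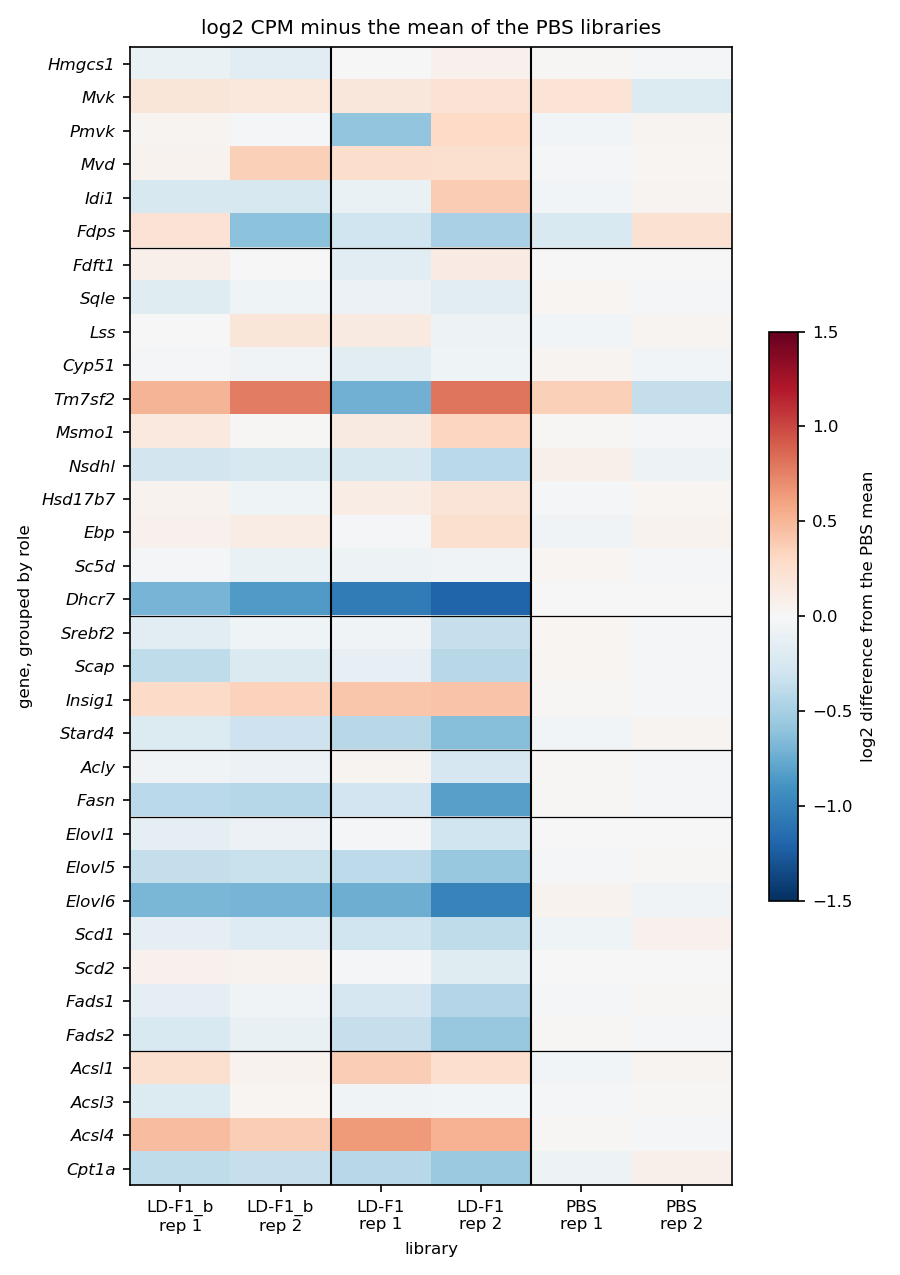
Log2 CPM of each of the 34 genes in each library minus the mean of the PBS libraries, with red above and blue below that mean. Dhcr7, Elovl6 and Fasn are blue in all 4 vesicle libraries and Insig1 and Acsl4 are red in all 4; LD-F1 replicate 2 is the deepest blue for Fasn, at -0.82.

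In the early cholesterol route, none of the 6 mevalonate genes was called in either comparison with PBS. The shares of all genes called were 11.0% after LD-F1_b and 21.2% after LD-F1. Hmgcs1, which makes HMG-CoA, had 80.2 and 77.0 CPM in LD-F1_b libraries, 85.7 and 89.5 CPM in LD-F1 libraries, and 87.0 and 84.4 CPM in PBS libraries. The LD-F1_b values lay below both PBS values, and of the LD-F1 values 1 lay between the PBS values and 1 above them (log2 fold change -0.12 ± 0.09 SE, adjusted p = 0.448, for LD-F1_b, and 0.03 ± 0.09, adjusted p = 0.846, for LD-F1). Under library totals alone the LD-F1 value of Hmgcs1 was -0.07. Mvk, Pmvk and Mvd, which phosphorylate and decarboxylate mevalonate, had log2 fold changes of 0.16, 0.00 and 0.21 for LD-F1_b and 0.18, -0.08 and 0.25 for LD-F1. Idi1, the isomerase of isopentenyl diphosphate, and Fdps, farnesyl diphosphate synthase, had 285 and 247 counts over all libraries, and their intervals were correspondingly wide: -0.91 to 0.41 for Idi1 and -0.96 to 0.62 for Fdps after LD-F1_b, and -0.47 to 0.81 for Idi1 and -1.24 to 0.38 for Fdps after LD-F1. Fdps is uncertain for another reason, since 5 other entries of the table carry its description and 4 others that of Idi1, and the sources used here do not give the treatment of reads that match several places. Summed over the 6 genes, the level was 142 and 144 CPM in LD-F1_b libraries, 146 and 160 CPM in LD-F1 libraries, and 146 and 145 CPM in PBS libraries. Acat2 had no entry of that name, but 1 other entry, named Acat3, carries its description. Acat3, looked up after its values were seen, was lower than PBS in all vesicle libraries and not called. It was at -0.77 ± 0.27 for LD-F1_b (adjusted p = 0.0916) and -0.69 ± 0.27 for LD-F1 (adjusted p = 0.0894).

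From squalene to cholesterol, 10 of the 11 genes were not called after either vesicle. Calls were made for 11.0% of all genes after LD-F1_b and 21.2% after LD-F1. Sqle, squalene epoxidase, had 131 and 143 CPM in LD-F1_b libraries, 140 and 133 CPM in LD-F1 libraries, and 152 and 146 CPM in PBS libraries. All 4 vesicle values lay below both PBS values, by less than the test could call (-0.12 ± 0.09, adjusted p = 0.442, for LD-F1_b; -0.13 ± 0.09, adjusted p = 0.353, for LD-F1). Fdft1 (squalene synthase), Lss (lanosterol synthase), Cyp51 (the lanosterol demethylase), Ebp (the sterol isomerase) and Sc5d (the sterol desaturase) lay between -0.06 and 0.10 for LD-F1_b and between -0.11 and 0.12 for LD-F1. Msmo1, which oxidises the methyl groups at carbon 4, was at 0.09 for LD-F1_b and 0.23 for LD-F1, and its partners Nsdhl and Hsd17b7 were at -0.26 and 0.00 for LD-F1_b and at -0.32 and 0.15 for LD-F1. Msmo1 passed the test for LD-F1 only with gene length offsets (adjusted p = 0.037), with these and a replicate block (0.0459) or without LD-F1 replicate 1 (0.00552). Tm7sf2, a sterol reductase with 256 counts in all, had the widest interval, -0.36 to 1.61 for LD-F1_b and -0.81 to 1.22 for LD-F1. It overlaps Vps51 on the same strand. Cyp51 and Fdft1 overlap Akap9 and Ctsb on the opposite strand, and the sources used here do not give whether counting used strand.

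Dhcr7 was the exception on this route. It encodes the reductase of the last step of the Kandutsch-Russell branch, which turns 7-dehydrocholesterol into cholesterol. Its level was 9.32 and 8.36 CPM in LD-F1_b libraries, 7.27 and 6.54 CPM in LD-F1 libraries, and 15.2 and 15.2 CPM in PBS libraries. All 4 vesicle libraries lay well below PBS, and the LD-F1 libraries lay below the LD-F1_b libraries. The level fell by 41.9% after LD-F1_b (-0.78 ± 0.17, adjusted p = 0.0114) and fell by 54.6% after LD-F1 (-1.14 ± 0.18, adjusted p = 0.000635). The LD-F1 call of Dhcr7 held under all 14 alternatives. The LD-F1_b call was lost without any LD-F1_b or PBS library: adjusted p was 0.0755 and 0.127 without LD-F1_b replicate 1 and 2, and 0.111 and 0.105 without PBS replicate 1 and 2. In the table the gene lies on chromosome 7, at 154552246 to 154576535 on the plus strand, in the table's positions, which are taken as C57BL/6NJ coordinates.

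Of the 4 genes of sterol sensing and transfer, 1 rose after LD-F1_b, and 1 rose and 1 fell after LD-F1. Among all genes tested, 6.44% rose and 4.54% fell after LD-F1_b, and 11.4% rose and 9.87% fell after LD-F1. Insig1, which retains SCAP in the endoplasmic reticulum, had 70.5 and 73.9 CPM in LD-F1_b libraries, 77.3 and 77.7 CPM in LD-F1 libraries, and 58.7 and 57.1 CPM in PBS libraries. Each vesicle library exceeded both PBS libraries. Insig1 rose by 0.32 ± 0.09 after LD-F1_b (adjusted p = 0.0491) and by 0.42 ± 0.09 after LD-F1 (adjusted p = 0.00713) on the log2 scale. The LD-F1_b call held in 5 of 14 alternatives and was lost, among others, under library totals alone (0.116) and without any LD-F1_b or PBS library (0.179 to 0.379). The LD-F1 call of Insig1 was lost without PBS replicate 1 (0.0867) or 2 (0.116).

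Srebf2 had 235 and 253 CPM in LD-F1_b libraries, 256 and 208 CPM in LD-F1 libraries, and 269 and 260 CPM in PBS libraries. The vesicle values lay below PBS without passing the test (-0.12 ± 0.10, adjusted p = 0.532, for LD-F1_b, and -0.19 ± 0.10, adjusted p = 0.215, for LD-F1). Without LD-F1 replicate 1, Srebf2 was called lower for LD-F1 (-0.35, adjusted p = 0.000687). Scap had 81.0 and 90.6 CPM in LD-F1_b libraries, 97.0 and 79.0 CPM in LD-F1 libraries, and 108 and 104 CPM in PBS libraries. It too was lower in every vesicle library and not called (-0.30 ± 0.11, adjusted p = 0.116, for LD-F1_b; -0.26 ± 0.11, adjusted p = 0.121, for LD-F1). Without LD-F1 replicate 1, Scap was called lower for LD-F1 (0.00123), and without either LD-F1 library it was called lower for LD-F1_b (0.00411 and 0.0039).

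Stard4, a soluble protein that moves cholesterol between membranes, had 37.6 and 35.0 CPM in LD-F1_b libraries, 32.5 and 27.9 CPM in LD-F1 libraries, and 42.1 and 44.6 CPM in PBS libraries. The groups did not overlap, with LD-F1 lowest. Stard4 fell after LD-F1 (-0.52 ± 0.12, adjusted p = 0.00812), a call lost without PBS replicate 1 (0.0501) or 2 (0.0971). For LD-F1_b the difference was -0.26 ± 0.12 (adjusted p = 0.202).

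Fatty acid synthesis starts from cytosolic acetyl-CoA, which Acly makes from citrate. Acly had 302 and 296 CPM in LD-F1_b libraries, 322 and 264 CPM in LD-F1 libraries, and 318 and 310 CPM in PBS libraries. It was not called (-0.07 ± 0.10, adjusted p = 0.720, for LD-F1_b; -0.10 ± 0.10, adjusted p = 0.526, for LD-F1), and the LD-F1 libraries lay on both sides of PBS. Without LD-F1 replicate 1, Acly was called lower for LD-F1 (-0.25, adjusted p = 0.00475). Acaca, the carboxylase that makes malonyl-CoA, had no entry of that name, but an entry without a symbol on chromosome 11, at 88120419 to 88425793 in the table's positions, is described there as acetyl-CoA carboxylase 1. This entry, looked up after its values were seen, had 102 and 97.6 CPM in LD-F1_b libraries, 110 and 83.4 CPM in LD-F1 libraries, and 129 and 122 CPM in PBS libraries. It was lower in all vesicle libraries, and passed the test for LD-F1 (-0.37 ± 0.12, adjusted p = 0.0447) and not for LD-F1_b (-0.32 ± 0.12, adjusted p = 0.112).

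Fasn, which builds palmitate from malonyl-CoA, was the member with the most counts, 77251 over all libraries. It had 815 and 803 CPM in LD-F1_b libraries, 879 and 611 CPM in LD-F1 libraries, and 1088 and 1065 CPM in PBS libraries. All vesicle libraries were below PBS, and the LD-F1 replicates lay further apart than the LD-F1_b and PBS replicates. Fasn fell after LD-F1 (-0.53 ± 0.13, adjusted p = 0.0155) and was at -0.41 ± 0.13 for LD-F1_b (adjusted p = 0.0767). The LD-F1 call was lost in a fit of those groups alone (0.0623), without either LD-F1_b library (0.0522 and 0.0544) and without either PBS library (0.0934 and 0.0724). The LD-F1_b difference passed in 8 of 14 alternatives, with DESeq2 (0.0284), without the count filter (0.000228), under library totals alone (0.0459), with length offsets (0.044), with these and a replicate block (0.046), in a fit of those groups alone (1.04e-05) and without LD-F1 replicate 1 (3.47e-06) or 2 (3.04e-06).

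**Figure D4:**
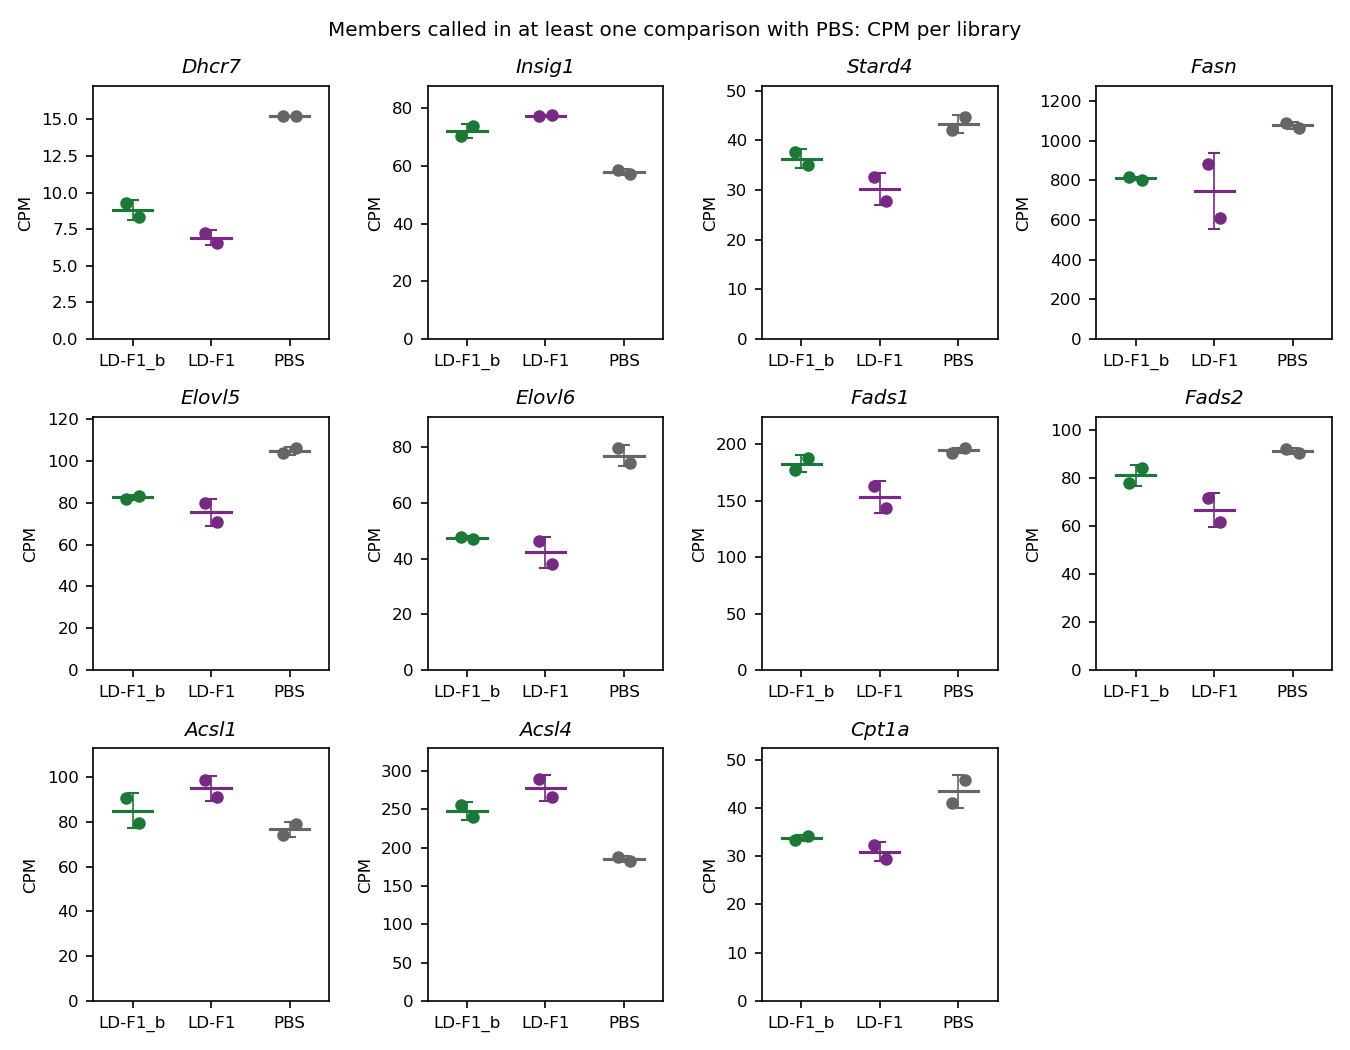
CPM of the 11 genes called in a comparison with PBS, 1 panel a gene with its own axis from 0; points are libraries, bars are means and whiskers are SD (n = 2). The vesicle points of Dhcr7, Elovl5 and Elovl6 all lie below the PBS points and those of Insig1 and Acsl4 all lie above them; the LD-F1 points of Fasn, at 879 and 611 CPM, are the most widely spaced.

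Of the 7 genes of elongation and desaturation, 2 fell after LD-F1_b (28.6% called), where 4.54% of all genes tested fell. After LD-F1 4 fell (57.1% called), where 9.87% of all genes fell, and none rose in either comparison. Their median log2 fold change was -0.16 for LD-F1_b and -0.34 for LD-F1, where the median over all genes was 0.01 in each. Elovl6, which lengthens palmitate to stearate, had 47.9 and 47.3 CPM in LD-F1_b libraries, 46.3 and 38.3 CPM in LD-F1 libraries, and 79.7 and 74.5 CPM in PBS libraries. No vesicle library came near the PBS values. Elovl6 fell to 0.617 of the PBS level after LD-F1_b (-0.70 ± 0.11, adjusted p = 0.00183) and to 0.549 of it after LD-F1 (-0.87 ± 0.11, adjusted p = 0.000183). The LD-F1 call of Elovl6 held under all 14 alternatives and the LD-F1_b call under 13, the exception being without LD-F1_b replicate 2 (0.0505). The gene lies on chromosome 3, at 136930382 to 137046029 on the plus strand in the table's positions.

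Elovl5, the elongase of polyunsaturated chains, had 81.8 and 83.4 CPM in LD-F1_b libraries, 80.0 and 71.0 CPM in LD-F1 libraries, and 104 and 106 CPM in PBS libraries. It was lower in each vesicle library, after LD-F1_b by -0.35 ± 0.10 (adjusted p = 0.0363) and after LD-F1 by -0.48 ± 0.10 (adjusted p = 0.00374). The LD-F1 call of Elovl5 was lost without PBS replicate 2 (0.0622), and the LD-F1_b call without any LD-F1_b or PBS library (0.204 to 0.293). Elovl1 was at -0.11 ± 0.10 for LD-F1_b (adjusted p = 0.532) and -0.15 ± 0.10 for LD-F1 (0.335), and passed for LD-F1 only without LD-F1 replicate 1 (0.00298).

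Fads1 and Fads2, the delta-5 and delta-6 desaturases of polyunsaturated fatty acid synthesis, are neighbours on chromosome 19. Fads1 had 178 and 188 CPM in LD-F1_b libraries, 163 and 144 CPM in LD-F1 libraries, and 193 and 196 CPM in PBS libraries. Fads2 had 78.2 and 84.4 CPM in LD-F1_b libraries, 71.8 and 61.8 CPM in LD-F1 libraries, and 92.4 and 90.5 CPM in PBS libraries. For both genes the LD-F1_b libraries lay between the LD-F1 and the PBS libraries, and the groups did not overlap. After LD-F1 Fads1 fell by 0.34 ± 0.09 (adjusted p = 0.0181) and Fads2 fell by 0.45 ± 0.10 (adjusted p = 0.00792) on the log2 scale, and after LD-F1_b they were at -0.09 ± 0.09 (0.595) and -0.17 ± 0.10 (0.339). The Fads2 call was lost without PBS replicate 1 (0.0919) or 2 (0.0675). The Fads1 call was lost without PBS replicate 1 (0.135) or 2 (0.168), without LD-F1_b replicate 1 (0.0507) or 2 (0.0519), and in a fit of LD-F1 and PBS alone (0.0535).

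The stearoyl-CoA desaturases Scd1 and Scd2, also on chromosome 19, were not called. Scd2 had 586 and 579 CPM in LD-F1_b libraries, 550 and 493 CPM in LD-F1 libraries, and 560 and 561 CPM in PBS libraries. It was the only one of the 7 above PBS in both LD-F1_b libraries (0.06 ± 0.08, adjusted p = 0.735), a value that was -0.02 under library totals alone, and it lay below PBS in both LD-F1 libraries (-0.10 ± 0.08, adjusted p = 0.439). Scd1 was at -0.16 ± 0.13 for LD-F1_b (adjusted p = 0.498) and -0.34 ± 0.13 for LD-F1 (adjusted p = 0.0926). Scd1 passed for LD-F1 under library totals alone (0.0306), and Scd2 without LD-F1 replicate 1 (0.0246). These genes are close paralogs, and their values are uncertain as far as reads match both, which was not measured.

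Of the 4 genes of acyl-CoA formation and mitochondrial entry, 1 rose after LD-F1_b, and 2 rose and 1 fell after LD-F1. Over all genes tested, 6.44% rose and 4.54% fell after LD-F1_b, and 11.4% rose and 9.87% fell after LD-F1. Acsl4, a ligase of fatty acids to coenzyme A that prefers arachidonic acid, had 256 and 240 CPM in LD-F1_b libraries, 290 and 266 CPM in LD-F1 libraries, and 189 and 183 CPM in PBS libraries. The groups did not overlap, with LD-F1 highest. Acsl4 rose by 0.42 ± 0.09 after LD-F1_b (adjusted p = 0.00796) and by 0.58 ± 0.09 after LD-F1 (adjusted p = 0.000452), and the LD-F1 call held under all 14 alternatives. The LD-F1_b call of Acsl4 was lost without LD-F1_b replicate 1 (0.142) or 2 (0.0737) and without PBS replicate 1 (0.118) or 2 (0.158). Acsl1, a long-chain ligase, had 90.6 and 79.5 CPM in LD-F1_b libraries, 98.8 and 91.1 CPM in LD-F1 libraries, and 74.3 and 79.1 CPM in PBS libraries. Both vesicle groups lay above PBS, LD-F1_b replicate 2 only just. Acsl1 rose after LD-F1 (0.31 ± 0.10, adjusted p = 0.0493), a call that held in 5 of 14 alternatives and was lost, for example, with DESeq2 (0.0707), under library totals alone (0.179), without either LD-F1_b library (0.0815 and 0.08) and without PBS replicate 1 (0.355) or 2 (0.185). For LD-F1_b Acsl1 was at 0.15 ± 0.10 (adjusted p = 0.411). Acsl3 was at -0.08 ± 0.11 for LD-F1_b and -0.04 ± 0.11 for LD-F1 and passed in neither. With 3631 counts in all, it overlaps Utp14b, with 3258, on the same strand, so its values are uncertain.

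Cpt1a, the carnitine acyltransferase that admits long chains to mitochondria and is inhibited by malonyl-CoA, had 33.3 and 34.2 CPM in LD-F1_b libraries, 32.4 and 29.5 CPM in LD-F1 libraries, and 41.0 and 45.9 CPM in PBS libraries. Every vesicle library was below PBS. Cpt1a fell after LD-F1 (-0.49 ± 0.12, adjusted p = 0.0100), a call lost without PBS replicate 2 (0.155), and was at -0.36 ± 0.11 for LD-F1_b (adjusted p = 0.0653). For LD-F1_b it passed in 5 of 14 alternatives: library totals alone (0.0283), length offsets (0.0441), a fit of those groups alone (0.0105) and without LD-F1 replicate 1 (0.00931) or 2 (0.00932).

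Set directly against each other, LD-F1_b and LD-F1 vesicles gave 0 called members with edgeR and 0 with DESeq2, where edgeR called 0.424% of all genes. At an unadjusted p under 0.05 there were 3 (Stard4, Fads1 and Fads2), where 8.78% of all genes passed. The libraries did not overlap for 16 of the 34 genes, where they did not for 34.0% of all genes, and LD-F1_b was the higher group in 10 of the 16. Of the 7 elongases and desaturases, 6 did not overlap, all with LD-F1_b higher, and none of the 7 was called. The 34.0% of all genes without overlap was not split by direction, so these directions have no share to be set against. Fads2 was 0.28 ± 0.10 higher in LD-F1_b than in LD-F1 (95% interval 0.06 to 0.51, adjusted p = 0.430), Fads1 0.25 ± 0.09 (0.06 to 0.45, 0.408) and Stard4 0.27 ± 0.12 (0.00 to 0.53, 0.563). The interval was -0.04 to 0.76 for Dhcr7, -0.08 to 0.42 for Elovl6, -0.18 to 0.41 for Fasn, -0.35 to 0.02 for Acsl4 and -0.31 to 0.10 for Insig1. The outcome depended on which LD-F1 library was kept. With all 6 libraries the median log2 fold change of the 34 genes was 0.05. It was 0.08 without LD-F1 replicate 1 and -0.01 without LD-F1 replicate 2, where the medians over all genes were 0.00 and 0.01.

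Genes around these routes, listed by pathway, were read from the same fit. Over all genes tested, 11.0% were called after LD-F1_b and 21.2% after LD-F1. Of 15 tested genes for other cholesterol enzymes and SREBP machinery, 1 rose and 1 fell after LD-F1_b (13.3% called, median log2 fold change -0.06), and 2 rose and 2 fell after LD-F1 (26.7% called, median 0.04). Nus1, a subunit of the enzyme that makes dolichol precursors, rose after LD-F1_b (0.30 ± 0.08, adjusted p = 0.0342) and LD-F1 (0.46 ± 0.08, adjusted p = 0.00169). Npc2, which hands cholesterol out of the lysosome, rose after LD-F1 (0.37 ± 0.09, adjusted p = 0.0129), and Lbr, a sterol reductase of the nuclear membrane, fell after LD-F1 (-0.30 ± 0.09, adjusted p = 0.0327). Srebf1, which encodes SREBP1, had 132 and 150 CPM in LD-F1_b libraries, 147 and 152 CPM in LD-F1 libraries, and 140 and 137 CPM in PBS libraries, and was not called (0.03 ± 0.09, adjusted p = 0.882, and 0.11 ± 0.09, adjusted p = 0.421, in that order).

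Among 12 tested genes of sterol efflux, oxysterols and esterification, 2 fell after LD-F1_b (16.7% called, median -0.19). After LD-F1, 1 rose and 3 fell (33.3% called, median -0.18). The shares of all genes called were 11.0% and 21.2%, in that order. Abcg1, an exporter of cholesterol to lipoproteins, had 58.8 and 64.3 CPM in LD-F1_b libraries, 54.6 and 46.0 CPM in LD-F1 libraries, and 94.0 and 99.6 CPM in PBS libraries. It fell in both comparisons (-0.65 ± 0.11, adjusted p = 0.00226, for LD-F1_b; -0.94 ± 0.11, adjusted p = 7.8e-05, for LD-F1). Abca1, the exporter to lipid-poor apolipoprotein, had 160 and 152 CPM in LD-F1_b libraries, 226 and 161 CPM in LD-F1 libraries, and 135 and 137 CPM in PBS libraries. Abca1 rose after LD-F1 (0.51 ± 0.13, adjusted p = 0.0149) and was at 0.20 ± 0.13 for LD-F1_b (adjusted p = 0.382). Nceh1, a hydrolase of cholesterol esters, fell in both (-0.64 ± 0.08 for LD-F1_b and -0.75 ± 0.08 for LD-F1; adjusted p = 0.000353 and 4.5e-05), and Scarb1, a lipoprotein receptor, fell after LD-F1 (-0.42 ± 0.10, adjusted p = 0.00854). Ch25h, the cholesterol hydroxylase, had 0 counts in all 6 libraries, below 3 counts or 0.189 to 0.225 CPM.

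Of 13 tested fatty acid synthesis and elongation genes outside the named set, 3 rose after LD-F1_b (23.1% called, median 0.07). After LD-F1, 5 rose (38.5% called, median 0.03), and none fell in either comparison. The shares of all genes that rose were 6.44% and 11.4%, in that order. Me1, a malic enzyme that supplies NADPH, had 71.7 and 71.8 CPM in LD-F1_b libraries, 84.2 and 99.3 CPM in LD-F1 libraries, and 57.3 and 50.6 CPM in PBS libraries (0.41 ± 0.11, adjusted p = 0.0331, for LD-F1_b; 0.77 ± 0.11, adjusted p = 0.000380, for LD-F1). Acss2, which makes acetyl-CoA from acetate, rose after LD-F1 (0.90 ± 0.22, adjusted p = 0.0136). Mid1ip1, an activator of acetyl-CoA carboxylase, rose in both (0.43 ± 0.10 for LD-F1_b and 0.56 ± 0.10 for LD-F1; adjusted p = 0.0165 and 0.00184), as did Hsd17b12, a reductase of the elongation cycle (0.33 ± 0.09 and 0.38 ± 0.09; 0.0257 and 0.00713, in the same order). Hacd3, named as a dehydratase of that cycle, rose after LD-F1 (0.33 ± 0.09, adjusted p = 0.0202). In the LD-F1 comparison these 5 genes rose in the same libraries in which Fasn, Elovl5, Elovl6, Fads1 and Fads2 fell. None of the genes of these 3 lists was called between LD-F1_b and LD-F1.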

How the data were processed

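The authors deposited raw read counts by gene, as whole numbers, for 6 RNA-seq libraries. Named in the submitters' processing notes are fastp, featureCounts 1.5.0-p3, StringTie 1.3.3b, HISAT2 2.0.5 and the build GRCm39. In the file, 41096 of 41972 entries carry C57BL/6NJ identifiers and 876 are assembled loci, so positions are those of the table. The sources used here do not give the strand setting or the treatment of reads that match several places.

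Differential expression was tested with edgeR 4.0.16 in R 4.3.3: filterByExpr (minimum count 10, leaving 12740 genes), TMM scaling, and robust quasi-likelihood F tests with a mean per group, all 6 libraries and 3 residual degrees of freedom. Adjusted p-values are Benjamini-Hochberg over all genes tested. SE were computed back from the test, and intervals are 95%. CPM are scaled by TMM, and log2 CPM used a prior count of 2. "Rose", "fell" and "called" mean an adjusted p under 0.05. A floor of 3 counts covers counting error only. The procedure was tested on simulated counts. Alternatives were DESeq2 1.42.0, its size factors, library totals alone, no filter, the compared groups alone, a replicate block, length offsets and leaving out each library.

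Members, gene lists and tests were chosen with earlier results of these data known. Values per library are given for members called in any comparison and for Srebf2, Scap, Insig1, Hmgcs1, Sqle, Fasn, Acaca and Cpt1a, and up to 5 called genes are named per pathway list, with Ch25h, Abca1 and Srebf1 always. Some genes of the lists are not reported here by name. Of the per-sample columns, 0 stayed unmatched. Promoter sequences are RefSeq's (GRCm38.p6), used for sequence only.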

Additional observations from a re-analysis of the deposited data

How the results depend on the processing

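Of 1428 values of the 34 genes under 14 alternatives, 0 of those called in the reported fit changed sign. Of the uncalled, 18 changed sign by more than 1 SE, given here, and 42 by less. Under library totals alone Hmgcs1 was at -0.072 for LD-F1 against PBS. The others came with a library left out and are given as the range over the 6 such fits. For LD-F1 against PBS the ranges were -0.61 to 0.30 (Pmvk), -0.82 to 0.79 (Tm7sf2) and -0.25 to 0.036 (Acly). For LD-F1_b against PBS they were -0.21 to 0.032 (Acsl3), -0.67 to 0.20 (Fdps) and -0.041 to 0.38 (Mvk). For LD-F1_b against LD-F1 they were -0.20 to 0.11 (Mvd), -0.24 to 0.63 (Fdps), -0.17 to 0.078 (Acsl3), -0.31 to 0.61 (Pmvk), -0.092 to 0.20 (Fdft1), -0.17 to 1.44 (Tm7sf2), -0.18 to 0.12 (Scap), -0.067 to 0.23 (Srebf2), -0.11 to 0.18 (Acly), -0.12 to 0.40 (Fasn) and -0.10 to 0.18 (Elovl1). In each of these LD-F1_b against LD-F1 ranges the extremes came from leaving out an LD-F1_b or LD-F1 library, and the cause was not tested further.

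Members called numbered 0 to 8 for LD-F1_b against PBS, 3 to 17 for LD-F1 against PBS and 0 to 4 for LD-F1_b against LD-F1 when a library was left out, and 8 for LD-F1_b against PBS in a fit of those groups alone. Over all genes the ranges were 401 to 3142, 1213 to 4497 and 0 to 1152, in the same order, against 1398, 2707 and 54 in the reported fit. The lowest came without LD-F1_b replicate 1 or PBS replicate 1 (401 each), without PBS replicate 1 (1213) and without LD-F1_b replicate 2 (0), and the highest without LD-F1 replicate 2 (3142) and without LD-F1 replicate 1 (4497 and 1152). LD-F1_b against PBS called 3098 genes in a fit of those groups alone. LD-F1_b against LD-F1 called 185 without the filter, 110 with DESeq2, 112 with length offsets, 110 with these and a replicate block, and 33 in a fit of those groups alone.

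Library totals alone moved the median of all genes to -0.07 for LD-F1_b and -0.10 for LD-F1 against PBS. They called 629 genes higher and 880 lower for LD-F1_b, against 820 and 578 with TMM, and 977 higher and 1934 lower for LD-F1, against 1449 and 1258. Among the 34 genes the split was 1 higher and 5 lower for LD-F1_b, against 2 and 3, and 2 higher and 10 lower for LD-F1, against 3 and 8. Deviations of same-numbered libraries correlated at 0.08 (LD-F1_b and LD-F1), 0.00 (LD-F1_b and PBS) and -0.02 (LD-F1 and PBS). Whether same-numbered libraries share a mouse or day is not given, and such low values cannot decide it. With a replicate block, 4 members were called for LD-F1_b, 10 for LD-F1 and 0 between them, and 1357, 2706 and 52 genes in all. Fdps, Idi1 and Tm7sf2, with 247 to 285 counts in all, have the least precise values.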

Other observations

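Beyond synthesis, genes of lipid uptake and storage were read from the same fit. Over all genes tested, 11.0% were called after LD-F1_b and 21.2% after LD-F1. Of 14 tested, 3 rose and 1 fell after LD-F1_b (28.6% called, median log2 fold change -0.11), and 4 rose and 2 fell after LD-F1 (42.9% called, median -0.03). Hilpda, which inhibits lipolysis at lipid droplets, had 68.2 and 71.5 CPM in LD-F1_b libraries, 79.2 and 102 CPM in LD-F1 libraries, and 39.1 and 39.5 CPM in PBS libraries (0.83 ± 0.12, adjusted p = 0.00102, for LD-F1_b; 1.21 ± 0.12, adjusted p = 2.7e-05, for LD-F1). Lpl, lipoprotein lipase, had 2695 and 2403 CPM in LD-F1_b libraries, 2285 and 2566 CPM in LD-F1 libraries, and 1348 and 1530 CPM in PBS libraries (0.82 ± 0.10, adjusted p = 0.000261, for LD-F1_b; 0.75 ± 0.10, adjusted p = 0.000204, for LD-F1). Cd36, a fatty acid and lipoprotein receptor, rose by 0.34 ± 0.08 after LD-F1_b (adjusted p = 0.0197) and by 0.52 ± 0.08 after LD-F1 (adjusted p = 0.000660). Fabp5, a fatty acid binding protein, fell by 0.46 ± 0.09 after LD-F1_b (adjusted p = 0.00766) and fell by 0.66 ± 0.09 after LD-F1 (adjusted p = 0.000334). Lpin1, a phosphatidate phosphatase, fell after LD-F1 (-0.87 ± 0.19, adjusted p = 0.00673) and was at -0.60 ± 0.19 for LD-F1_b (adjusted p = 0.0611).

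Of 15 tested genes of fatty acid oxidation, which Cpt1a feeds, 0 were called after LD-F1_b with edgeR (1 at an unadjusted p under 0.05). After LD-F1, 2 fell (13.3% called, median -0.01). Both shares were below those of all genes, 11.0% after LD-F1_b and 21.2% after LD-F1. Hadh, a dehydrogenase of the oxidation cycle, was at -0.12 ± 0.11 for LD-F1_b (adjusted p = 0.531) and fell after LD-F1 (-0.34 ± 0.11, adjusted p = 0.0431). Etfdh, which passes electrons of that cycle to ubiquinone, was at -0.40 ± 0.13 for LD-F1_b (adjusted p = 0.0790) and fell after LD-F1 (-0.45 ± 0.13, adjusted p = 0.0324). None of the genes of these lists was called between LD-F1_b and LD-F1.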
